A study of Mus musculus with 6 samples.

Results

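The genes described here are negative feedback regulators and transcriptional targets of the ERK pathway: the phosphatase genes Dusp4, Dusp5 and Dusp6, the Sprouty genes Spry1, Spry2 and Spry4, the Spred genes Spred1 and Spred2, and the ETS factor genes Etv4 and Etv5. Members were the array features whose platform annotation gave exactly 1 of these 10 symbols. The rule found 16 features for 9 of the 10 genes, among 41230 features with a value. Dusp5 had no feature under the rule and was not analysed here. The study set MMH cells carrying a Prox1 expression construct (MMH-Prox1) against MMH cells carrying the empty plasmid (MMH-pCDNA3.1), with no treatment or time course in the labels. MMH stands for Met murine hepatocytes, and the titles carry the stage embryonic day 14. Lines of this name are known to come from mice with a liver transgene for an active form of Met, the receptor of hepatocyte growth factor, so that both RNAs come from cells with that background. The labels give 1 Prox1 RNA source and 1 vector RNA source and name no clone.

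ERK is the last kinase of a cascade that runs from receptor tyrosine kinases through Ras, Raf and MEK. Active ERK raises transcription of its own inhibitors: dual specificity phosphatases remove the activating phosphates, and Sprouty and Spred proteins act upstream, at or before Ras and Raf. Etv4 and Etv5 belong to the PEA3 group of ETS factors, whose mRNA levels often follow ERK activity, for instance downstream of FGF receptors. In liver cells the pathway is driven by hepatocyte growth factor and EGF receptor ligands.

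The RNAs were hybridised as pairs to 2-colour arrays. On 3 arrays the Prox1 RNA was labelled Cy5 (called the Cy5 arrays here). On the other 3 it was labelled Cy3, and since their columns differed in 0 features they were counted once (called the Cy3 profile here), which left 4 distinct profiles. The deposited value is a signed ratio score scaled to an SD of 1 per array, so no value below is a fold change, and the level of a gene in either cell cannot be read from it. A value above 0 likely stands for a higher level in Prox1 cells. The labels do not state this direction, which was read from 1 of 3 Prox1 features, at 5.27 ± 0.14 on the Cy5 arrays (SD, n = 3) and 6.60 in the Cy3 profile; the other Prox1 features had effects of 0.089 and −0.157. The labels name no separate cultures, and a p-value here reflects no more than spread among arrays and between dye orientations, which can be technical. The orientations differed more than the arrays within one: the Cy5 mean minus the Cy3 score had a median size of 0.505 over all features, against a median SD of 0.154 among the Cy5 arrays. The SD of that difference over features was 1.06. The labels also give 1 of the Cy3 replicates another RNA isolation, so dye, isolation and any other difference between the orientations cannot be told apart.

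Dusp4 was the member gene that rose with Prox1, in both of its features, while no feature of Dusp6, the Sprouty, Spred or Etv genes passed the test. Dusp4 encodes a nuclear phosphatase, also called MKP2, that acts on ERK and on the stress kinases JNK and p38. The test was limma with the dye orientation as a random block and Benjamini-Hochberg adjustment over all 41230 features. It called 2 of 16 member features higher (12.5%) and 0 lower. In the same test 7.66% of all features were called, 3.08% higher and 4.58% lower, so the share among members rests on 1 gene. At an unadjusted p under 0.05 the test gave 3 member features higher and 1 lower, where 8255 of all 41230 features passed in either direction. Limma with a fixed dye term called 8 higher and 4 lower, where 25.4% of all features were called higher and 19.7% lower. The median effect of the 16 features was 0.28 SD units, against 0.037 over all features.

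**Figure D1:**
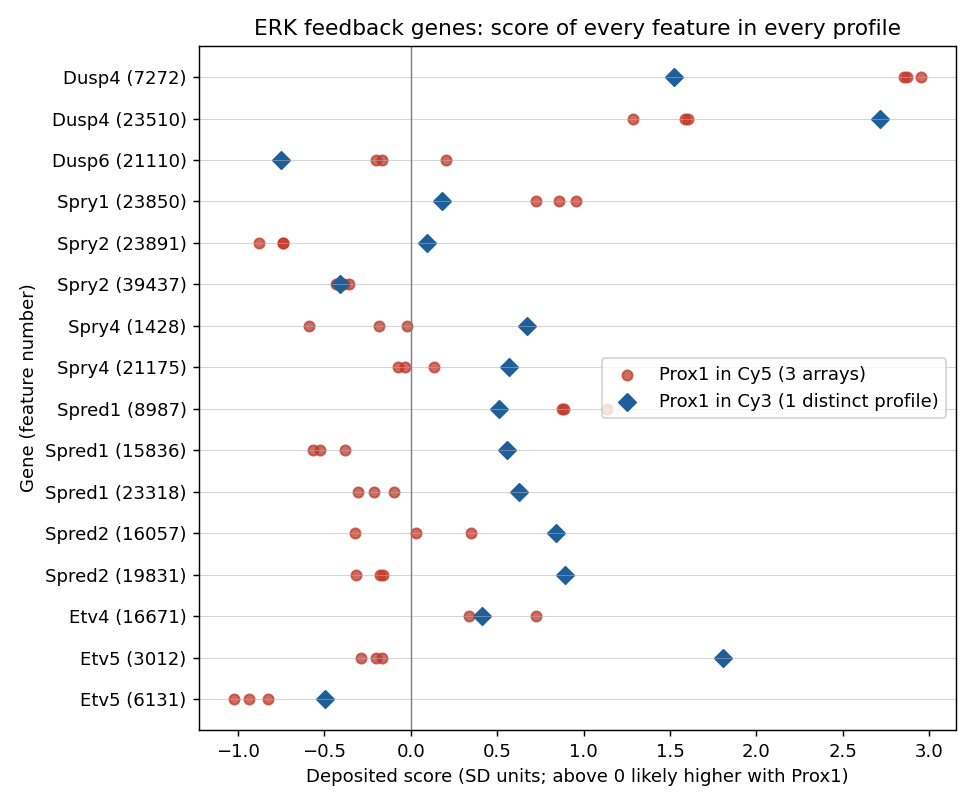
Deposited score (horizontal axis, SD units) of the 16 features of ERK feedback genes (vertical axis, with feature numbers), where circles are the 3 Cy5 arrays (Prox1 RNA in Cy5) and diamonds the 1 distinct Cy3 profile (Prox1 RNA in Cy3). Both Dusp4 features lie above 1.2 in every profile, and most other features lie between −1 and 1, often with the diamond apart from the circles.

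The Dusp4 feature 7272 had scores of 2.87, 2.85 and 2.95 on the Cy5 arrays and 1.52 in the Cy3 profile. The Dusp4 feature 23510 had scores of 1.29, 1.60 and 1.59 on the Cy5 arrays and 2.72 in the Cy3 profile. All 8 values were above 0, but the features changed places: the first was higher on the Cy5 arrays and the second in the Cy3 profile. Their effects were 2.26 ± 0.35 (SE; adjusted p = 0.016, rank 240 from the top of 41230) and 2.06 ± 0.35 (adjusted p = 0.023, rank 334), both from limma with the random block. Only 0.238% of all features lay above feature 7272 on the Cy5 arrays and 5.38% in the Cy3 profile, whereas 4.39% and 0.822% lay above feature 23510. Averaged over both features, Dusp4 stood at 2.08, 2.23 and 2.27 on the Cy5 arrays and at 2.12 in the Cy3 profile. The gene mean thus hardly differed between the orientations, although each feature alone did. The gaps of the features, Cy5 minus Cy3, were 1.37 and −1.22 and nearly cancelled in the mean, which lowers its SE. The effect of the gene mean was 2.16 ± 0.20 (SE). Its adjusted p was 0.0030 in limma with the random block over 28617 rows, which were gene means and features without exactly 1 symbol. In RNA of a whole culture, more cells with Dusp4 and more Dusp4 RNA per cell cannot be told apart.

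The single features of Dusp4 lay close to the threshold when 1 array was left out. Without replicate 1 the adjusted p of feature 7272 was 0.053 and that of feature 23510 0.046. Without replicate 2 they were 0.054 and 0.069, and without replicate 3 they were 0.056 and 0.074. The gene mean passed in all 3 cases, with adjusted p between 0.014 and 0.017 and effects between 2.14 and 2.19. Opposite gaps between the orientations cancel in that mean, so its passing does not make the single features more stable. With each orientation as 1 value, neither feature passed (adjusted p = 0.23 for each), nor did any of the 41230 features.

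Dusp6, also called MKP3, encodes a cytoplasmic phosphatase with a strong preference for ERK. Its 1 feature had scores of −0.168, −0.202 and 0.206 on the Cy5 arrays and −0.752 in the Cy3 profile. The 3 arrays lay on both sides of 0, and the lowest value came from the other orientation. The effect was −0.378 ± 0.31 (SE; limma adjusted p = 0.69), with a 95% interval from −1.14 to 0.39. That interval lies below those of the Dusp4 features, which ran from 1.42 to 3.09 and from 1.20 to 2.92. In limma with a fixed dye term Dusp6 passed at −0.40 (adjusted p = 0.028), where 45.1% of all features were called.

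Sprouty proteins are membrane-associated inhibitors that dampen signalling from receptor tyrosine kinases to ERK. Spry1 scored 0.955, 0.857 and 0.724 on the Cy5 arrays and 0.183 in the Cy3 profile, above 0 in every profile. The Spry2 feature 39437 scored −0.355, −0.384 and −0.432 on the Cy5 arrays and −0.407 in the Cy3 profile, below 0 in every profile and with hardly any gap between the orientations. The Spry2 feature 23891 scored −0.881, −0.739 and −0.741 on the Cy5 arrays but 0.095 in the Cy3 profile. Spry1 and Spry2 therefore stood on opposite sides of 0 on the Cy5 arrays. Spry1 had an effect of 0.54 ± 0.26 (SE; adjusted p = 0.35), and the Spry2 features had effects of −0.40 ± 0.21 and −0.38 ± 0.28 (adjusted p = 0.39 and 0.62), in the random block model. With a fixed dye term these 3 features passed (adjusted p = 0.0048, 0.0087 and 0.018), in a model that called 45.1% of all features. The Spry4 feature 1428 scored −0.587, −0.182 and −0.023 on the Cy5 arrays and 0.671 in the Cy3 profile. The Spry4 feature 21175 scored −0.077, 0.135 and −0.032 on the Cy5 arrays and 0.568 in the Cy3 profile. Both were thus above 0 in the Cy3 profile and near or below 0 otherwise, with effects of 0.17 ± 0.37 and 0.27 ± 0.25 that did not pass (adjusted p = 0.97 and 0.75). With a fixed dye term feature 21175 passed (adjusted p = 0.040) and feature 1428 did not (adjusted p = 0.25).

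The promoters of Spry1 and Spry2 are shown because these paralogues stood on opposite sides of 0 on the Cy5 arrays, although neither passed the random block test and Spry2 feature 23891 stood above 0, like Spry1, in the Cy3 profile. Each run is the 300 bases from 250 before to 50 after the gene's start, 5′ to 3′, from RefSeq in build GRCm38.p6, with Spry1 at chr3:37639697-37639996 on the plus strand and Spry2 at chr14:105896770-105897069 on the minus strand. Capitals mark matches to the ETS-type motif CCGGAA on either strand.
Spry1: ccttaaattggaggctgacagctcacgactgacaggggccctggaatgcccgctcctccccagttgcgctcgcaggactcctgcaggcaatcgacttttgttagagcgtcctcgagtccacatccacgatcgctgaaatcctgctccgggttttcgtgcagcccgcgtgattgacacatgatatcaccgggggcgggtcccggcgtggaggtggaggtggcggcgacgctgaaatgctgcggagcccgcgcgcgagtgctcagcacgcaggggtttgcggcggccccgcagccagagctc
Spry2: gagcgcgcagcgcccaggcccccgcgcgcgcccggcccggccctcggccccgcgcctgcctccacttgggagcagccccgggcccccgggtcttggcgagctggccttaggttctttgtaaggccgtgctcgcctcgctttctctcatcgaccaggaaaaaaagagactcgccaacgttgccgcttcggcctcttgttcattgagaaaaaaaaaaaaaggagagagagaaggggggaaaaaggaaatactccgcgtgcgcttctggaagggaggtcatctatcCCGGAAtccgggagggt
The motif had 0 matches in the Spry1 window and 1 match in the Spry2 window, at bases 284 to 289 of the run, which lies after the gene's start. The other 6 member windows searched, of Dusp5, Dusp6, Spred1, Spred2 and Etv5 (which has more than 1 window), had 0 matches. Thus 1 of the 8 windows searched, from 7 member genes, held the motif. No window of Dusp4, Spry4 or Etv4 was searched, so these genes are not covered. Of the 32851 promoter windows in the table, 14.9% held it. The cAMP response element TGACGTCA, searched on both strands, had 0 matches in both windows, and 1.79% of all windows held it. A match describes these letters and is no evidence of binding.

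Spred proteins carry the Sprouty-related domain and bring the Ras inactivator neurofibromin to the membrane. The Spred1 feature 8987 scored 0.874, 0.884 and 1.13 on the Cy5 arrays and 0.508 in the Cy3 profile, above 0 in every profile. Its effect was 0.75 ± 0.26 (SE; limma adjusted p = 0.16). The Spred1 feature 15836 scored −0.524, −0.379 and −0.566 on the Cy5 arrays and 0.559 in the Cy3 profile. The Spred1 feature 23318 scored −0.304, −0.0998 and −0.211 on the Cy5 arrays and 0.627 in the Cy3 profile. On the Cy5 arrays the features of Spred1 therefore went both ways, and in the Cy3 profile they lay close together. The effects of the last features were −0.0037 ± 0.31 and 0.18 ± 0.28 (adjusted p = 0.999 and 0.92). The Spred2 feature 16057 scored 0.028, 0.349 and −0.324 on the Cy5 arrays and 0.841 in the Cy3 profile. The Spred2 feature 19831 scored −0.162, −0.319 and −0.180 on the Cy5 arrays and 0.891 in the Cy3 profile. Both Spred2 features were higher in the Cy3 profile than on any array of the other orientation, and their effects of 0.40 ± 0.39 and 0.29 ± 0.31 did not pass (adjusted p = 0.77 and 0.80). With a fixed dye term, which called 45.1% of all features, Spred1 feature 8987 and Spred2 feature 19831 passed (adjusted p = 0.0014 and 0.021). The other Spred features did not pass in that model.

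Etv4, the founding PEA3 factor, was among the members whose orientations differed least. It scored 0.338, 0.404 and 0.724 on the Cy5 arrays and 0.409 in the Cy3 profile, all above 0, with an effect of 0.45 ± 0.27 (SE; limma adjusted p = 0.48). Etv5 gave the widest gap between orientations of all members. Its feature 3012 scored −0.169, −0.287 and −0.200 on the Cy5 arrays and 1.81 in the Cy3 profile, where only 3.56% of all features lay above it. Its feature 6131 scored −1.03, −0.939 and −0.825 on the Cy5 arrays and −0.498 in the Cy3 profile, below 0 in every profile. The effects were 0.72 ± 0.46 (adjusted p = 0.52) and −0.73 ± 0.24 (adjusted p = 0.15), of nearly equal size and opposite sign. The mean of both features stood at −0.0052 ± 0.31, so that the gene mean hides features that disagree. With a fixed dye term Etv4 and both Etv5 features passed, each Etv5 feature in its own direction (adjusted p = 0.016, 0.00061 and 0.0011). That model called 45.1% of all features, and its error comes from the Cy5 arrays alone.

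**Figure D2:**
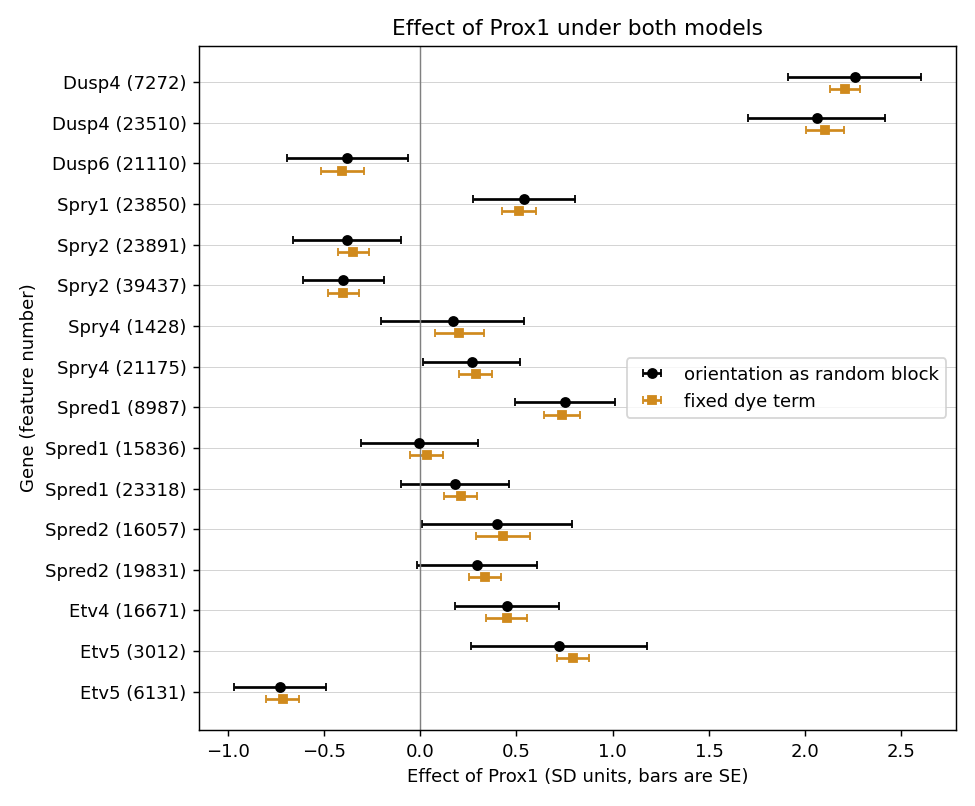
Effect of Prox1 (horizontal axis, SD units, bars are SE) on each of the 16 features (vertical axis), with circles for the orientation as a random block and squares for a fixed dye term. Both models give nearly the same effects, with Dusp4 near 2 and all other features between −0.73 and 0.79, and they differ in the width of the SE.

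The dye orientations were compared directly, since the members' values depended on them. The difference between them, Cy5 minus Cy3, passed in 10 of 16 member features in limma with a fixed dye term (62.5%), against 40.7% of all features. It was negative in 8 of the 10, that is, higher in the Cy3 profile (20.7% of all features were negative in this test), and positive in Dusp4 feature 7272 and Spry1. Only the Cy5 arrays supply the spread behind this test. On the Cy5 arrays, 7 of the 16 features had a mean above 0, against 54.9% of all features, and their median was −0.13. In the Cy3 profile, 13 of the 16 were above 0, against 48.2% of all features, with a median of 0.56. A reading of the members from either orientation alone would thus differ. In 10 of 16 features the sign was shared by both orientations, against 52.7% over all features. In 7 it was shared by all 4 profiles, for which the share over all features was not counted, so this number cannot be called unusual. These were both Dusp4 features, Spry1, Spry2 feature 39437, Spred1 feature 8987, Etv4 and Etv5 feature 6131.

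**Figure D3:**
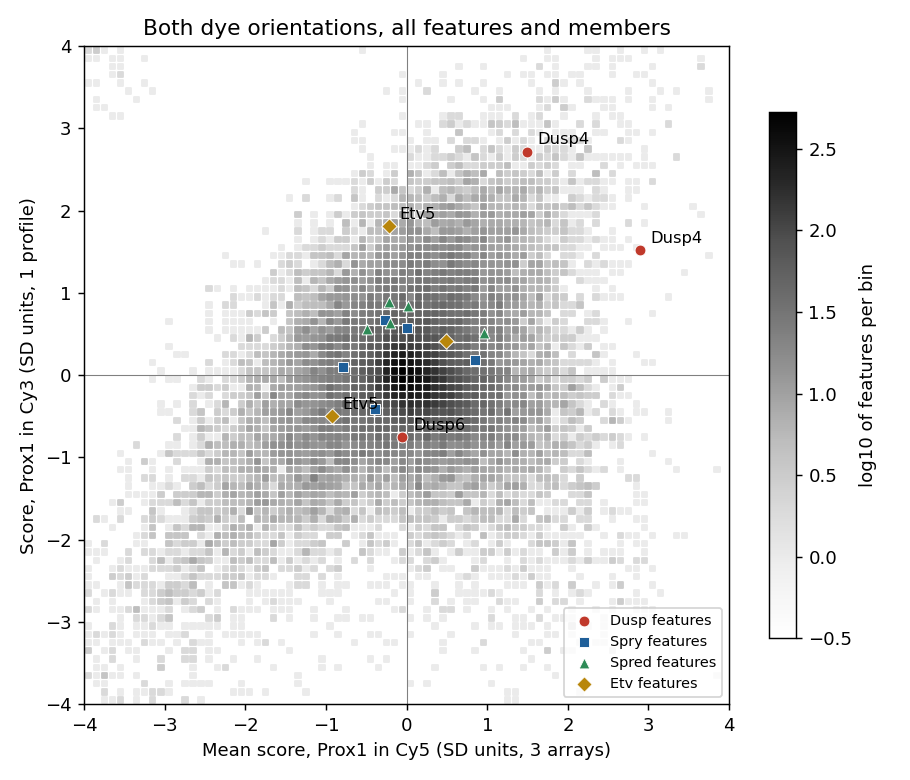
Mean score of the Cy5 arrays (horizontal axis, SD units, 3 arrays) against the score of the Cy3 profile (vertical axis, SD units, 1 profile), where grey squares are bins of all features, darker with more features, coloured symbols are the member features by family, and the most extreme features of the array lie outside the axes. The Dusp4 features lie far to the upper right, and Etv5 feature 3012 lies above the horizontal zero line but left of the vertical one.

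Features of 1 gene disagreed to an extent common on this array in most of the 5 member genes with exactly 2 features. Among the 5292 genes with exactly 2 features the median gap between them was 0.55 SD units on the Cy5 arrays and 0.58 in the Cy3 profile. The Etv5 features lay 0.71 apart on the Cy5 arrays and 2.30 apart in the Cy3 profile, where 5.20% of such genes had a wider gap. The Dusp4 features lay 1.40 and 1.20 apart in the same order of orientations, with 16.0% and 22.4% of genes wider. The Spry2 features lay 0.40 and 0.50 apart, and those of Spry4 and Spred2 at most 0.27 apart in either orientation. Which transcript region each feature detects was not analysed here.

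The other genes of the pathway came from 3 lists: the core cascade, further ERK-responsive genes, and further feedback inhibitors and MAP kinase phosphatases. Their median effects were 0.026, 0.011 and 0.017 SD units, close to the 0.037 of all features. Counts are from limma with the random block, which called 7.66% of all features, unless a fixed dye term is named. At an unadjusted p under 0.05 the random block gave 8255 of all 41230 features. The fixed dye term called 45.1% of all features. Of 36 features of 15 measured core genes 0 rose and 2 fell (5.56%); at an unadjusted p under 0.05 there were 5 higher and 4 lower, and a fixed dye term called 10 higher and 6 lower. The falls were in Ptpn11, the phosphatase SHP2 that carries receptor signals to Ras (feature 37042, effect −1.52 ± 0.22, SE; adjusted p = 0.013), and Map2k1, the kinase MEK1 that activates ERK (−1.21 ± 0.23; adjusted p = 0.032). The other Ptpn11 features, at −0.31 and 0.13, did not pass. Map2k2, which encodes MEK2, stood at −1.06 ± 0.30 and the Raf kinase gene Braf in feature 18388 at 1.15 ± 0.30, without passing (adjusted p = 0.099 and 0.078). The other Braf features had effects between −0.29 and 0.36 and did not pass either. Without any 1 of the Cy5 arrays, Map2k1 did not pass (adjusted p between 0.081 and 0.086), which left 1 call in the core list.

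Of 25 features of 17 further ERK-responsive genes 3 rose, all of 1 gene, and 2 fell (20.0% called, against 7.66% of all features). At an unadjusted p under 0.05 there were 6 higher and 4 lower, and a fixed dye term called 9 higher and 8 lower. All 3 features of Myc rose, with effects of 2.63 ± 0.22, 2.63 ± 0.24 and 3.53 ± 0.33 SD units (SE; limma adjusted p = 0.0024, 0.0031 and 0.0032). The immediate early gene Ier2 fell in feature 16346, at −2.84 ± 0.28 (adjusted p = 0.0038), and stood at −0.13 ± 0.28 in its other feature. Ier3, another early response gene, fell by 1.16 ± 0.23 (adjusted p = 0.033) and did not pass without any 1 of the Cy5 arrays (adjusted p between 0.074 and 0.088). Egr1, an early growth response factor induced through ERK, stood at −1.36 ± 0.37 (adjusted p = 0.085).

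Among 20 features of the 14 other feedback and phosphatase genes 3 rose and 0 fell (15.0%); at an unadjusted p under 0.05 there were 3 higher and 1 lower, and a fixed dye term called 7 higher and 4 lower. The 3 rises were in Dusp14 and Dusp1, both dual specificity phosphatases. The list held 12 features of such genes, and the other 9, of Dusp2, Dusp7, Dusp8, Dusp9, Dusp10 and Dusp16, had effects between −0.45 and 0.54 and did not pass. Dusp14 scored 2.75, 2.96 and 2.63 on the Cy5 arrays and 4.17 in the Cy3 profile in feature 9679, and 2.01, 1.98 and 2.43 on the Cy5 arrays and 2.0 in the Cy3 profile in feature 40544. Dusp1, the early response phosphatase MKP1, scored 2.28, 2.19 and 2.35 on the Cy5 arrays and 1.51 in the Cy3 profile. The effects were 3.43 ± 0.37, 2.07 ± 0.30 and 1.92 ± 0.27 (SE; adjusted p = 0.0052, 0.013 and 0.011). Errfi1, an inhibitor of EGF receptor kinases, stood at −1.13 ± 0.28 and Il17rd, a membrane inhibitor of FGF signalling also called Sef, at 0.62 ± 0.29 in its feature with the smallest p, without passing (adjusted p = 0.067 and 0.32). The other Il17rd features, at −0.125 and −0.104, did not pass either.

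**Figure D4:**
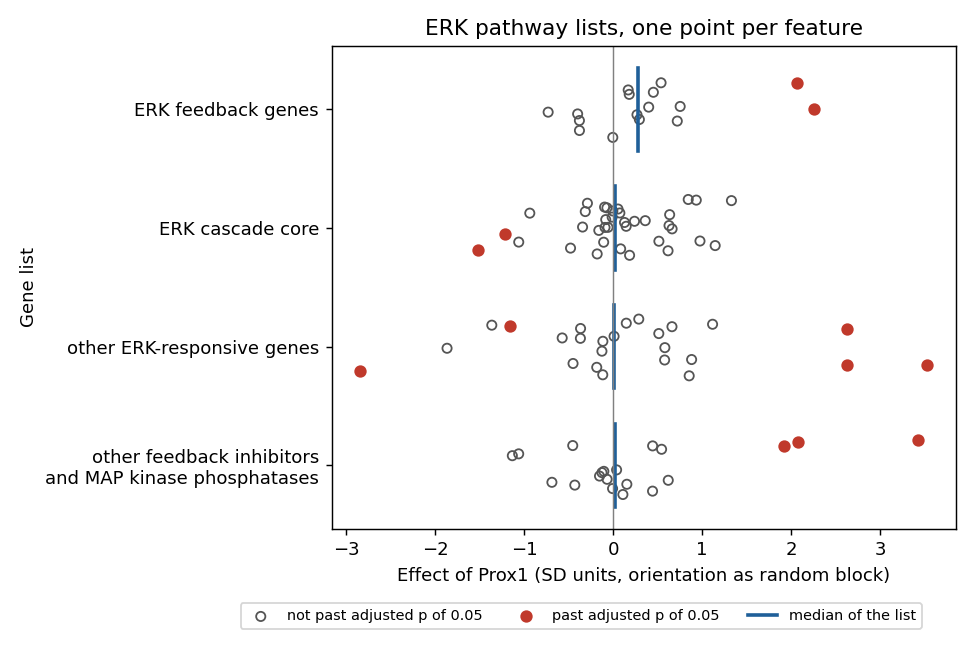
Effect of Prox1 (horizontal axis, SD units, orientation as random block) for each feature of the 4 ERK pathway lists (vertical axis, with points spread at random for legibility), where filled points passed an adjusted p of 0.05, open points did not and blue bars are list medians. Filled points above 0 are features of Dusp4, Myc, Dusp14 and Dusp1, and filled points below 0 those of Ptpn11, Map2k1, Ier2 and Ier3.

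Markers of cell types were read in the same test, as ratios and not as levels. At an unadjusted p under 0.05 that test gave 8255 of all 41230 features, and a fixed dye term called 45.1% of all features. Of 11 features of 8 hepatocyte and hepatoblast markers 6 fell and 0 rose (54.5% called, against 7.66% of all features). The median effect was −3.41 SD units. At an unadjusted p under 0.05 there were 8 lower and 0 higher, and with a fixed dye term 9 lower and 1 higher. The falls were in 4 genes, Hnf4a, Krt8, Trf and Alb. Krt18 (effect −2.32), Apoa1 (−1.04), Ttr (−0.34), Afp (0.32) and another Hnf4a feature (−0.15) did not pass. Of 19 fibroblast and stellate cell features 1 rose and 1 fell (10.5%, against 7.66% of all features; 2 higher and 3 lower at an unadjusted p under 0.05, and 3 and 4 with a fixed dye term). The 12 macrophage and 17 endothelial features had 0 calls in limma with the random block, with 2 and 0 at an unadjusted p under 0.05 and 4 and 3 with a fixed dye term. Their effects lay between −0.47 and 0.61 for macrophage and between −0.49 and 0.80 for endothelial features. The part of the fall in hepatocyte markers in the Dusp4 result was not tested.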

How the data were processed

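Prox1 and empty vector RNA of mouse MMH cells were hybridised together on 2-colour arrays, with PCR amplification before labelling, per the labels' protocols. The values the authors deposited are scores: signed ratios of both channels with an SD of 1 in each of 6 columns, with column medians between −0.020 and 0.060. For scanner software, background correction, normalization, scaling and log base, the steps were not given in the sources used here. Signal over background is unknown, and the number of arrays limits the precision. Orientations correlated at r = 0.397 to 0.444 over features and were taken to run the same way; features are not independent.

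Features were named from a platform annotation of 2016, and the gene identifiers of 31700 features with 1 symbol gave 0 changes of symbol. Each of 41230 features entered limma 3.58.1 (R 4.3.3) with an intercept and a random block for the dye orientation (consensus correlation 0.796 by duplicateCorrelation), Benjamini-Hochberg adjustment and a threshold of 0.05. This model was preferred to a fixed dye term, whose error comes from 1 orientation alone. When an array was left out, the correlation was kept from all 4 profiles, a choice made after seeing the data. Member features are all named; from each other pathway list, counts and up to 4 genes of smallest p. The members, lists and tests were chosen with earlier results of these data known.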

Additional observations from a re-analysis of the deposited data

Results flagged for a closer look

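The following member features were listed because the difference between the dye orientations, Cy5 minus Cy3, itself passed limma with a fixed dye term (Benjamini-Hochberg over all features). The difference was 1.37 SD units for Dusp4 feature 7272 (adjusted p = 0.0022) and −1.22 for Dusp4 feature 23510 (adjusted p = 0.0058). It was 0.662 for Spry1 (adjusted p = 0.029), −0.881 for Spry2 feature 23891 (adjusted p = 0.0095), −0.935 for Spry4 feature 1428 (adjusted p = 0.031) and −0.559 for Spry4 feature 21175 (adjusted p = 0.049). Among the Spred genes it was −1.05 for Spred1 feature 15836 (adjusted p = 0.0058), −0.832 for Spred1 feature 23318 (adjusted p = 0.013) and −1.11 for Spred2 feature 19831 (adjusted p = 0.0045). For Etv5 feature 3012 it was −2.03 (adjusted p = 0.00091). The Cy3 side of each difference is 1 profile, and 40.7% of all features passed this test.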

How the results depend on the processing

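With a fixed dye term 18604 features and 12 member features passed, with neither dye term nor block 9524 and 7, and on the Cy5 arrays alone 23983 and 9, against 3160 and 2 with the random block. With each orientation as 1 value 0 of 41230 and 0 of 16 passed in limma (unadjusted p under 0.05 in 5498 and 2). With the identical columns counted separately 4931 and 2 passed. Features averaged per gene gave 2406 calls, and 1 of the 9 member genes passed, Dusp4. Leaving out 1 Cy5 array gave 1455 to 1624 features and 0 to 1 member features. The difference between orientations passed in 8 to 10 member features in those runs, for which the share of all features is not given here. With all profiles it passed in 10 member features and in 40.7% of all features. Median-centred columns and columns of equal median absolute deviation gave 2979 and 3098 features and 2 member features each. Both Dusp4 features were well above 0 in every profile, so their sign under the alternatives was fixed in advance and tests nothing. Signs turned only in features that had not passed with the random block, among them Etv5 feature 3012 and Spred2 feature 19831, which passed with a fixed dye term. Spred1 feature 15836 stood at 0.035 with a fixed dye term, with orientations as 2 values and with identical columns separate, at 0.014 with equal deviations, between −0.023 and 0.027 without 1 array, and at 0.31 as gene mean. Spry4 feature 1428 stood at −0.030 with neither term. On the Cy5 arrays alone Spry4 feature 1428 stood at −0.26, Spred1 feature 23318 at −0.20, Spred2 feature 19831 at −0.22 and Etv5 feature 3012 at −0.22, and the last at −0.0052 as gene mean. The cause was not tested, beyond fewer profiles when arrays are left out. No paired analysis was possible because the orientations share no replicate number. Scanner-level alternatives were not run.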
